A study of Mus musculus with 25 samples.

Results

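The 43 genes described here encode the synaptic vesicle and release machinery, namely vesicle proteins, the SNAREs and their regulators, active zone scaffolds and the endocytic proteins that retrieve vesicle membrane. They were chosen by name from the table of gene counts, with a limit of 10 counts summed over the 24 immunoprecipitates (IPs), and 43 of 43 listed genes passed, out of 50559 genes in the table and 21738 that reached the limit. The lowest sum was 861 counts for *Synpr*. The genes were followed in mRNA bound to cholinergic neuron ribosomes from the spinal cord of male C57BL/6J mice at 6 mo of age, with 6 mice in each of 4 groups. Controls (*ChAT-Cre;RiboTag* fx/+) and *ChAT-BKO* mice, which carry *Bmal1* fx/fx beside *ChAT-Cre* and *RiboTag* fx/+, were collected at ZT8, in the light period, and at ZT20, in the dark period, where ZT is the number of hours after lights on. Both genotypes carry the Cre and the RiboTag allele, which puts a hemagglutinin (HA) tag on a ribosomal protein where Cre is active, and the controls, labelled wild-type, differ in lacking the floxed *Bmal1* alleles. Cre was active in every cell type that expresses *Chat*, not in motor neurons alone, and each IP came from 1 whole spinal cord. A pooled input library of spinal cord RNA before the IP was the only sample of its kind.

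At a nerve terminal, vesicles filled with transmitter are tethered near the active zone, docked and primed, and they fuse when calcium enters and binds a synaptotagmin. Fusion is driven by the assembly of synaptobrevin (VAMP) on the vesicle with syntaxin and SNAP25 on the plasma membrane, and the ATPase NSF with its SNAP adaptors takes the complex apart afterwards. Membrane is then recovered by dynamin, amphiphysin, synaptojanin and endophilin. Motor neurons use this machinery at the neuromuscular junction, which has a high safety factor and is known for the isoforms *Syt2* and *Vamp1*.

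Libraries held between 4.04 and 31.7 M counts on genes, and the input held 7.40 M. Levels are given as CPM, gene counts scaled to a common library size by TMM. *Bmal1*, listed as *Arntl*, was present at 8.44 ± 1.43 CPM (SD, n = 6) at ZT8 and 8.73 ± 1.18 CPM at ZT20 in controls, against 2.64 ± 0.538 and 1.92 ± 0.515 CPM with the deletion, with no overlap between genotypes. All 7 markers of cholinergic neurons were above input (median log2 ratio 2.31), while 0 of 6 markers of excitatory neurons, inhibitory neurons, astrocytes, microglia, oligodendrocytes and endothelial cells each were above it. The summed level of 15 skeletal muscle markers varied between libraries, from 11.3 to 212 CPM, with medians of 41.6 and 21.2 CPM for controls at ZT8 and ZT20 and of 15.3 and 88.3 CPM for *ChAT-BKO*. Of these 15 markers, 1 was above input, and none was at 0 in all 6 libraries of any group. Its part in the results below was not tested.

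The 43 genes together took up between 2.38 and 2.60% of the counts in the 24 IPs (median 2.51%), against 1.87% in the input. Their summed level was nearly the same in the 4 groups. It ran from 24830 to 26713 CPM in controls at ZT8 (median 25012) and from 24482 to 25659 CPM in *ChAT-BKO* at ZT8 (median 24922). At ZT20 it ran from 24623 to 25553 CPM in controls (median 25103) and from 24522 to 25457 CPM in *ChAT-BKO* (median 24975). All 4 ranges overlap. In bulk samples, fewer cells of a type and less RNA per cell cannot be told apart, which holds for every level given here. CPM is also a share of each IP, so an even change in the number of tagged cells would not show in it. The paper counted fewer lumbar motor neurons after this deletion, in mice without the RiboTag allele.

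Divided by exon length, 5 transcripts stood above the rest of the machinery. *Snap25*, which encodes a SNARE of the plasma membrane, had the highest mean level over the 24 IPs at 1176 CPM per kb. It was followed by the vesicle protein synaptophysin (*Syp*, 1071 CPM per kb), the complexin *Cplx1*, which clamps and promotes fusion (946 CPM per kb), the vesicle GTPase *Rab3a* (862 CPM per kb) and the vesicle SNARE *Vamp1* (680 CPM per kb). Neighbours within these 5 overlap over the 24 libraries, while *Vamp1* does not overlap with the sixth gene, the Rab3 effector *Rph3a* (359 CPM per kb). At the other end were *Unc13b*, a Munc13 priming factor (0.552 CPM per kb), and the synaptophysin relative *Synpr* (0.680 CPM per kb), which overlap with each other.

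Relative to whole spinal cord RNA, genes of the machinery lay on both sides of the input. The log2 ratio of IP to input CPM, on total counts and with a prior count of 2, was above 0 in all 24 IPs for 15 genes, below 0 in all 24 for 18 genes, and on both sides of 0 for 10 genes. The median over the 43 genes was -0.10, against -0.45 over all genes tested, and no test was made, since the ratios share 1 input library. The sign of this median depends on the scaling, since TMM over IPs and input together moved it to 0.36 and that of all genes to -0.07, and it turned the mean ratio of 6 of the 43 genes, *Snap25*, *Sh3gl2*, *Synj1*, *Bsn*, *Dnm3* and *Dnajc5*, from below to above 0. A ratio below 0 says only that a transcript took a smaller share of the IP than of the cord. A mean log2 ratio over 1 was found for 6 of the 43 genes, where 7.64% of all genes tested pass this limit, and one under -1 for 9 of the 43, where 33.8% of all genes do. With TMM over all 25 libraries, 10 of the 43 were over 1, a count that cannot be set beside the 7.64%. The share of all genes under that scaling is not given here, nor are the shares of all genes above or below 0 in all 24 IPs.

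*Rab3b*, a paralog of the vesicle GTPase *Rab3a*, stood apart with a mean log2 ratio of 3.05, or 8.25-fold, ranging from 2.76 to 3.36 over the 24 IPs, and its level in the input was 29.8 CPM. The ranges of the other genes over 1 lay below it: the mean log2 ratio was 1.43 for *Syp*, 1.28 for the calcium sensor *Syt2*, 1.23 for *Rab3a*, 1.20 for *Napa*, which encodes the adaptor alpha-SNAP, and 1.14 for the vesicle glycoprotein *Sv2b*. The lowest mean log2 ratios belonged to *Synpr* (-3.55) and its relative *Sypl* (-3.35), to *Syt7* (-2.12), a slow high-affinity calcium sensor, to *Napb* (-2.07), which encodes beta-SNAP, and to *Syn3* (-1.93), a synapsin. The counts of *Napb* and *Syn3* held fractions in every column, as happens where reads are divided between genes, so their levels are uncertain. Those of *Rab3b* held fractions in 4 columns. By role, all 4 genes of the Rab3 group were above input on average (median log2 ratio 0.98). So were 4 of the 6 synaptotagmins and related sensors (median 0.29), 2 of the 3 synapsins (0.07) and 3 of the 6 endocytic genes (0.00). The same held for 3 of 6 vesicle membrane proteins (-0.36), 1 of 4 SNAREs (-0.37), 3 of 7 SNARE regulators and chaperones (-0.40) and 1 of 7 active zone genes (-0.73). These counts depend on the scaling. With TMM over all 25 libraries, the endocytic genes *Dnm3* (0.12), *Synj1* (0.28) and *Sh3gl2* (0.32) and the active zone gene *Bsn* (0.24) were above 0.

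**Figure D1:**
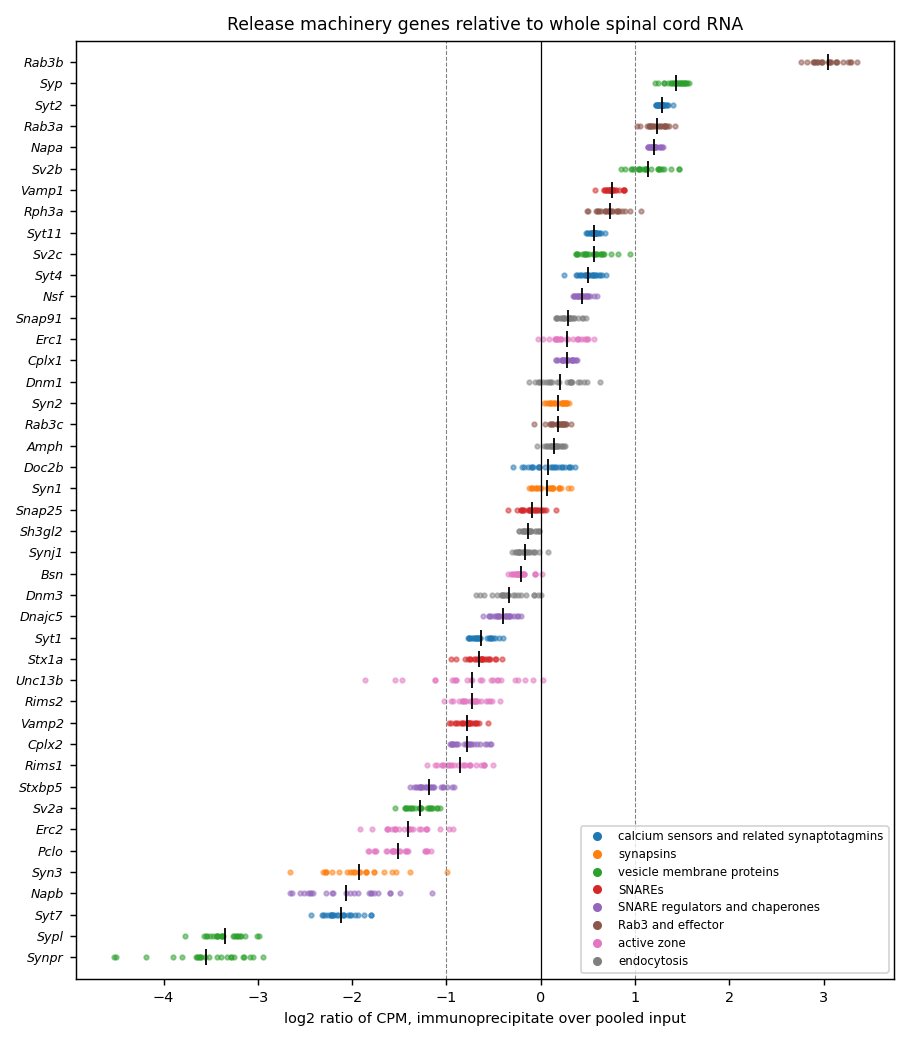
The log2 ratio of CPM in each of the 24 IPs to the pooled input (x axis) is plotted for the 43 genes (y axis), coloured by role, with a vertical tick for the mean and dashed lines at -1 and 1. *Rab3b* lies to the right of every other gene, and *Sypl* and *Synpr* lie at the left end with means of -3.35 and -3.55.

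Within paralog families the IPs held a different mix from the cord. Shares of a family, from CPM per kb of exon, are given for the 24 IPs as mean ± SD. *Syt2* made up 93.0 ± 0.599% of *Syt1* plus *Syt2*, against 77.9% in the input, and *Vamp1* made up 89.3 ± 0.661% of *Vamp1* plus *Vamp2*, against 74.3%. *Cplx1* made up 95.8 ± 0.440% of both complexins, against 91.6%. In each of these 3 pairs the input lay outside the range of the 24 IPs.

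The order of the SV2 glycoproteins, which are transporter-like proteins of the vesicle membrane, also differed. *Sv2a* was the main form in the input at 59.4%, but came last in the IPs at 26.0 ± 1.34%, after *Sv2c* (43.1 ± 0.974%) and *Sv2b* (31.0 ± 1.12%). *Sv2c* held fractional counts in every column and *Sv2b* in 10 of them. Among the ELKS scaffolds, *Erc1* made up 62.7 ± 4.26% of the IPs and 34.1% of the input, with *Erc2* as the remainder. *Napa* made up 92.8 ± 1.89% of *Napa* plus *Napb* in the IPs and 58.0% in the input, with the same reserve about *Napb*; this pair was added after its values were seen.

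In the remaining families the main form was the same in IP and input, although the input lay outside the range of the IPs for all 3 Rab3 genes, *Syn2*, *Syn3* and both dynamins. *Rab3a* made up 88.8 ± 0.714% of the 3 Rab3 genes in the IPs and 90.3% in the input, while *Rab3b* was a minor form at 7.60 ± 0.730% against 2.18%, and *Rab3c* was at 3.58 ± 0.219% against 7.51%. *Syn1* was the main synapsin with 65.3 ± 1.53% in the IPs and 64.7% in the input, followed by *Syn2* (33.4 ± 1.64% and 30.6%) and *Syn3* (1.21 ± 0.245% and 4.76%). *Dnm1*, the main neuronal dynamin, made up 88.9 ± 0.860% of *Dnm1* plus *Dnm3* and 84.7% in the input. *Rims1* took 57.7 ± 2.48% of *Rims1* plus *Rims2*, which are active zone scaffolds that bind Rab3, with the input at 59.9% inside the range of the IPs, and this order turned with the length of the longest transcript in place of all exons, which gave *Rims1* 47.1%.

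**Figure D2:**
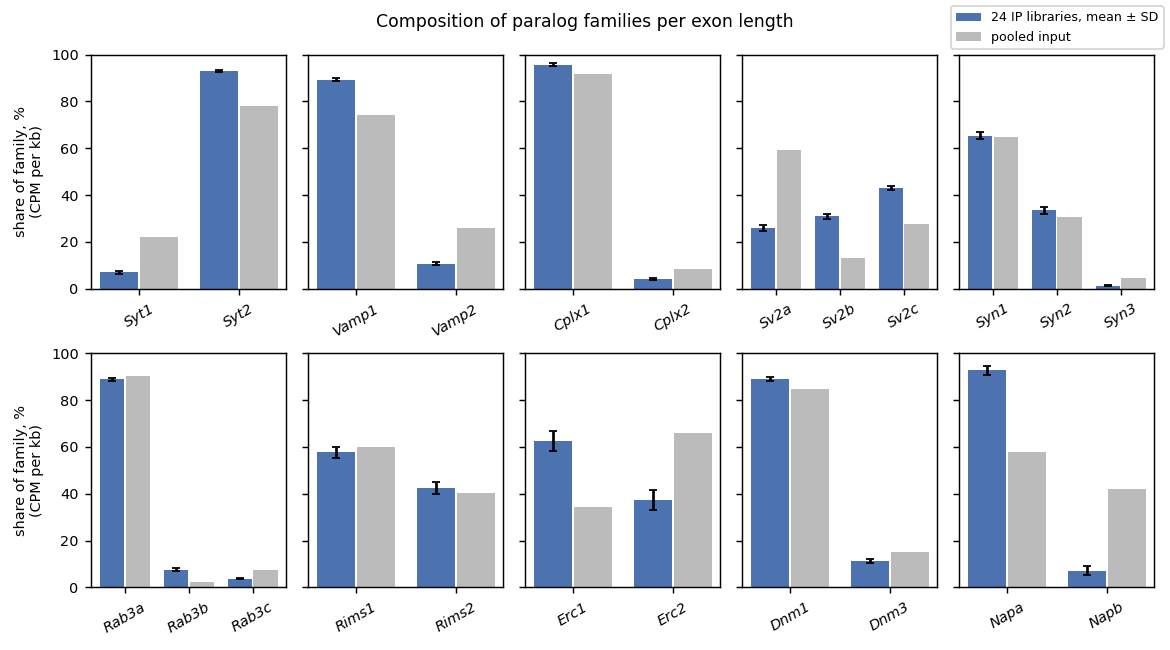
Bars show the share of each paralog in its family (y axis, %, from CPM per kb of exon), as the mean ± SD of the 24 IPs in blue and the pooled input in grey. *Syt2* and *Vamp1* took 93.0% and 89.3% of their pairs in the IPs, and the order of the *Sv2* and *Erc* genes differed between IP and input.

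Whether loss of *Bmal1* altered these transcripts was asked at each time by the quasi-likelihood F test of edgeR, with p-values adjusted after Benjamini and Hochberg across 21738 genes, where an adjusted p under 0.05 counts as a call. None of the 43 genes was called. At ZT8, 0 of 43 were called beside 0.184% of all genes tested, and at ZT20, 0 of 43 beside 0.23%. DESeq2 and limma voom also called 0 at both times. An unadjusted p under 0.05 was found for 2 of 43 genes at ZT8 and 2 of 43 at ZT20, which is 4.65% each time, beside 4.83 and 6.28% of all genes. The groups did not overlap for 0 of 43 genes, beside 0.57% of all genes at ZT8 and 0.506% at ZT20.

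The precision sets bounds on what could have been missed. The median SE of the log2 fold change was 0.0682 for the 43 genes at ZT8 and 0.0605 at ZT20, against 0.176 and 0.171 over all genes, and the coefficient of variation over the 24 IPs had a median of 7.89% against 22.5%. All genes here include those with few counts. With edgeR's filterByExpr, which drops genes with low counts, the median SE over the genes kept was 0.104 at ZT8 and 0.0990 at ZT20. The 95% interval of the fold change lay within 1.5-fold in either direction for 41 of 43 genes at ZT8 and 43 of 43 at ZT20, beside 53.5% of all genes at each time. Such shares of all genes, here and below, and the coefficients of variation were not matched for count level. Whether the 43 genes vary less than other genes of similar level was not tested. The exceptions at ZT8 were *Synpr* (log2 fold change 0.40, interval -0.09 to 0.88) and *Napb* (-0.18, interval -0.62 to 0.27). Log2 fold changes ran from -0.18 to 0.40 at ZT8 and from -0.20 to 0.19 at ZT20, with 23 and 25 of 43 above 0.

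**Figure D3:**
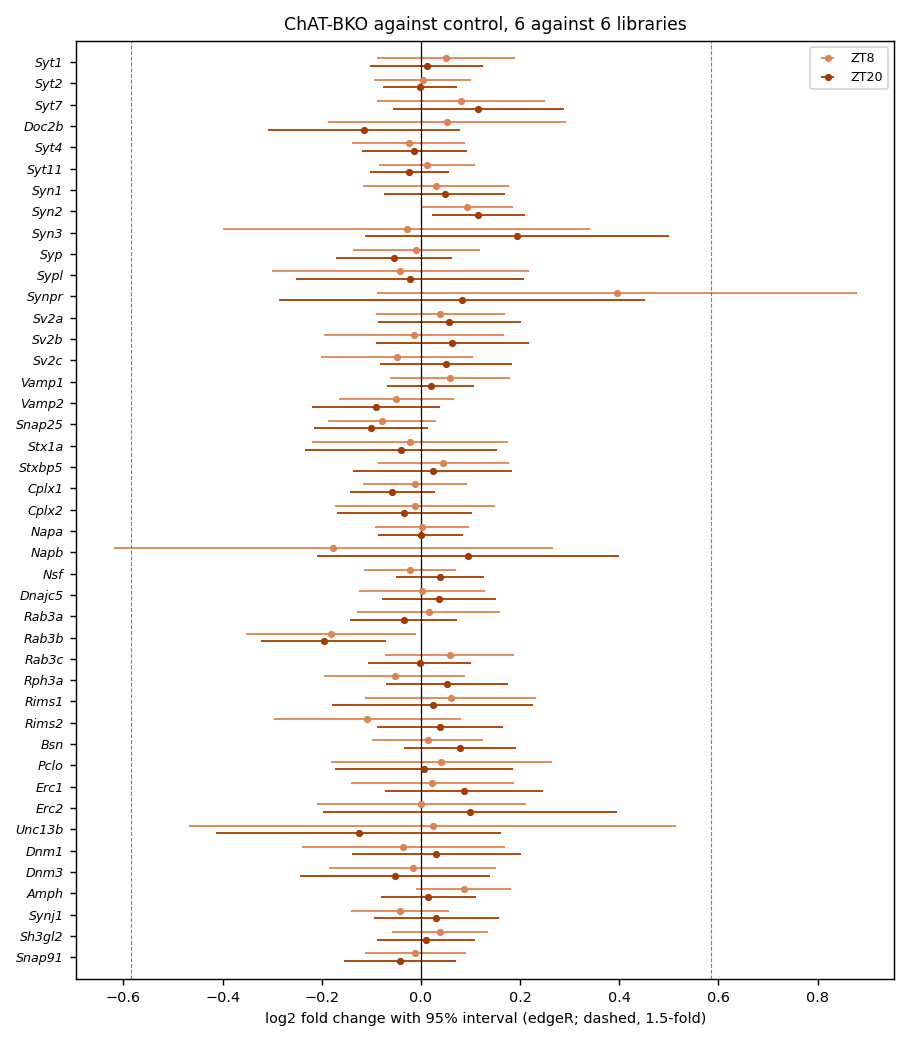
Points are log2 fold changes of *ChAT-BKO* against control (x axis) with 95% intervals from edgeR for the 43 genes (y axis) at ZT8 (light) and ZT20 (dark), 6 against 6 libraries, and dashed lines mark 1.5-fold. The intervals of *Rab3b* lie below 0 and those of *Syn2* above 0 at both times, but neither gene passed adjustment.

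The same 2 genes had the smallest p at ZT8 and an unadjusted p under 0.05 at both times. *Rab3b* was at 225, 276 and 315 CPM (lowest, median, highest of 6) in the ZT8 controls and at 198, 243 and 252 CPM in the ZT8 *ChAT-BKO* libraries. At ZT20 it was at 219, 263 and 287 CPM in controls and at 208, 229 and 244 CPM in *ChAT-BKO*. At ZT8, 1 of 6 *ChAT-BKO* libraries lay below every control, and at ZT20, 2 of 6 did, while the others were within the control range. The log2 fold change was -0.18 (SE 0.08, adjusted p = 1) at ZT8 and -0.20 (SE 0.06, adjusted p = 0.382) at ZT20 with edgeR.

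*Syn2*, a synapsin that holds vesicles in the reserve pool, was at 297, 302 and 319 CPM in controls and at 318, 326 and 334 CPM in *ChAT-BKO* at ZT8. At ZT20 it was at 284, 293 and 309 CPM in controls and at 303, 324 and 332 CPM in *ChAT-BKO*. At each time 5 of 6 *ChAT-BKO* libraries were above every control. The log2 fold change was 0.09 (SE 0.04, adjusted p = 1) at ZT8 and 0.12 (SE 0.04, adjusted p = 0.696) at ZT20 with edgeR.

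The third smallest p belonged at ZT8 to *Amph*, which encodes amphiphysin (log2 fold change 0.09, SE 0.05), and at ZT20 to *Snap25* (-0.10, SE 0.06), with unadjusted p of 0.0784 and 0.0822 from edgeR. *Snap25* was at 2471, 2748 and 3075 CPM in controls and at 2424, 2495 and 2859 CPM in *ChAT-BKO* at ZT20, so that 3 of 6 *ChAT-BKO* libraries lay below every control while the others were within the control range. Averaged over both times, a comparison added after the data were seen, the genotype effect was 0.11 for *Syn2* (adjusted p = 0.0688 from edgeR), -0.19 for *Rab3b* (adjusted p = 0.144) and -0.09 for *Snap25* (adjusted p = 0.581). This comparison called 0 of 43 genes and 0.653% of all genes, and no bound of its 95% intervals for the 43 genes was farther than 0.53 from 0 on the log2 scale.

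**Figure D4:**
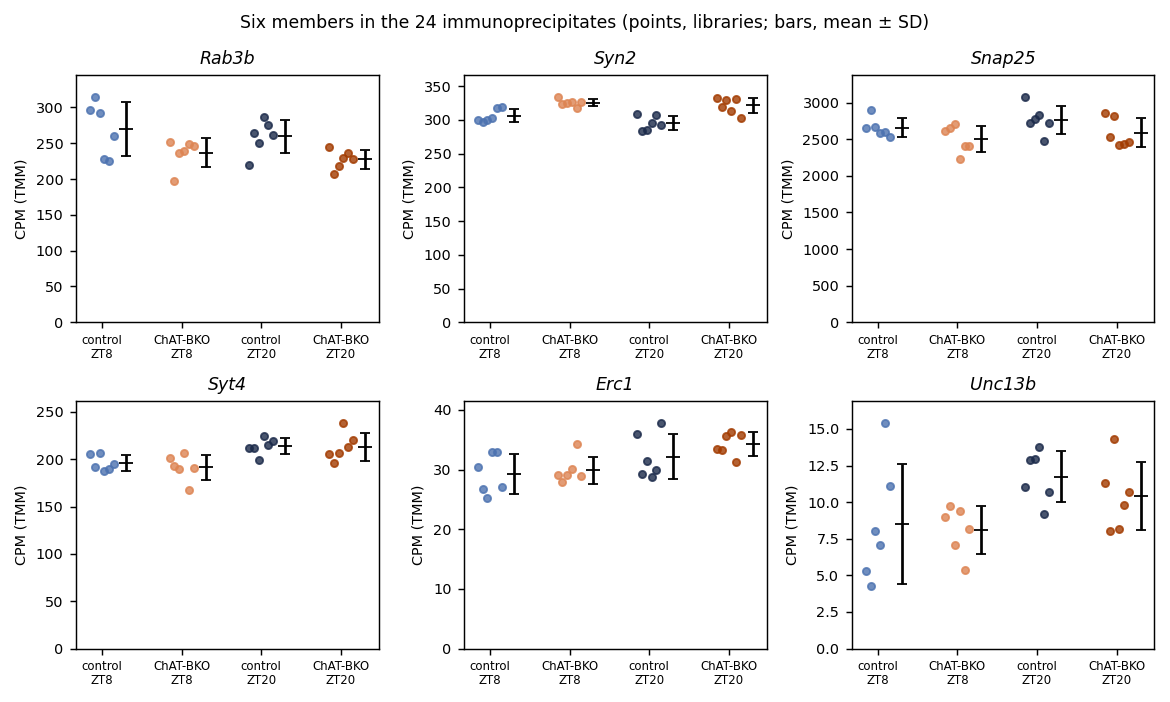
CPM of 6 genes (y axes, from 0) is shown for each library of the 4 groups (x axes), with mean ± SD beside the 6 points. The groups overlap in every panel, with *Rab3b* lower and *Syn2* higher on average in *ChAT-BKO* at both times.

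By role, the widest range belonged to the vesicle membrane proteins at ZT8, from -0.05 to 0.40, with *Synpr* at the top, and they ran from -0.05 to 0.08 at ZT20. The SNARE regulators and chaperones ranged from -0.18 (*Napb*) to 0.05 at ZT8 and from -0.06 to 0.09 at ZT20, and the Rab3 group from -0.18 to 0.06 and from -0.20 to 0.05, with *Rab3b* lowest each time. Of the 3 synapsins, 2 were above 0 at ZT8 (-0.03 to 0.09) and 3 at ZT20 (0.05 to 0.19), and 1 had an unadjusted p under 0.05 at each time. Of the 4 SNAREs, 1 was above 0 at each time, with log2 fold changes from -0.08 to 0.06 at ZT8 and -0.10 to 0.02 at ZT20. The calcium sensors and related synaptotagmins ranged from -0.02 to 0.08 at ZT8 and -0.11 to 0.12 at ZT20, and the main sensor *Syt2* was at 0.00 and -0.00 (intervals -0.09 to 0.10 and -0.08 to 0.07). The active zone group, which includes the large scaffolds *Bsn* and *Pclo*, ranged from -0.11 to 0.06 and from -0.13 to 0.10. The endocytic genes kept to values from -0.04 to 0.09 and from -0.05 to 0.03.

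BMAL1 with its partner CLOCK binds the E-box, and a letter search for CACGTG was made in the 250 bases upstream of the starts of 35 genes with a RefSeq promoter (GRCm38.p6). The motif reads the same on both strands. It was found in 4 of 47 windows of these genes (8.51%), beside 6.02% of 32851 windows of all genes. These stretches are printed because they name the members with this motif next to a RefSeq start. They are given 5′ to 3′ on the strand of the gene, with the motif in capitals. They lie at chr4:43058703-43058762 (*Unc13b*, + strand), chr7:16098358-16098579 (*Napa*, + strand), chr7:75302760-75302839 (*Sv2b*, - strand) and chr11:103954188-103954267 (*Nsf*, - strand).
Unc13b: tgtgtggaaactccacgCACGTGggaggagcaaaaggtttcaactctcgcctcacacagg
Napa: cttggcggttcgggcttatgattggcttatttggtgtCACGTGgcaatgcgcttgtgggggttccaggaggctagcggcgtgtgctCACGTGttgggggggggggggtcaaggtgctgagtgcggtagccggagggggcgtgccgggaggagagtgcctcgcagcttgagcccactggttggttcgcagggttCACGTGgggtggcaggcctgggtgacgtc
Sv2b: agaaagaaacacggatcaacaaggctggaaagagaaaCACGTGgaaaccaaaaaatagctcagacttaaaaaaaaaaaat
Nsf: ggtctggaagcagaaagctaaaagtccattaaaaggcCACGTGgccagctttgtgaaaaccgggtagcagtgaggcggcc

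The window of *Napa* holds 3 motifs, from 29 to 185 bases upstream of its RefSeq start, and the others hold 1 each. In the GENCODE annotation *Sv2b* spans chr7:75114894-75309262 on the - strand, so its stretch lies inside the gene. *Napa* starts there at chr7:16098458, which is within its printed stretch. A match of letters is not a binding site, and genes without it in this window may hold one elsewhere. Values for *ChAT-BKO* against control were near 0 in 3 of these 4 genes. The log2 fold change of *Napa* was 0.00 at ZT8 (interval -0.09 to 0.10) and -0.00 at ZT20 (-0.09 to 0.09). That of the ATPase *Nsf* was -0.02 (-0.12 to 0.07) and 0.04 (-0.05 to 0.13), and that of *Sv2b* was -0.01 (-0.20 to 0.17) and 0.06 (-0.09 to 0.22). *Unc13b*, at a mean of 9.69 CPM over the 24 IPs, had wide intervals with 0.02 (-0.47 to 0.52) at ZT8 and -0.13 (-0.41 to 0.16) at ZT20.

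Time of day was compared within each genotype in the same way. In controls, 0 of 43 genes were called at ZT20 against ZT8, beside 0.115% of all genes, and in *ChAT-BKO*, 0 of 43 beside 0.285%. An unadjusted p under 0.05 was found for 3 genes in each genotype (6.98%), beside 8.25% of all genes in controls and 9.42% in *ChAT-BKO*. All of them were higher at ZT20, where 4.74 and 5.39% of all genes were higher with such a p. The groups did not overlap for 0 of 43 genes, beside 0.938 and 1.18% of all genes. The 95% intervals lay within 1.5-fold for 40 genes in controls and 42 in *ChAT-BKO*, beside 53.6 and 51.5% of all genes. *Unc13b* was outside in both genotypes, and *Syn3* and *Synpr* in controls.

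*Syt4*, an atypical synaptotagmin of dense core and dendritic vesicles, had the smallest p in controls. It was at 187, 194 and 206 CPM at ZT8 and at 200, 214 and 225 CPM at ZT20 in controls, where 5 of 6 ZT20 libraries were above every ZT8 library. In *ChAT-BKO* it was at 167, 192 and 206 CPM at ZT8 and at 196, 209 and 238 CPM at ZT20, where 4 of 6 were. The log2 fold change was 0.13 (SE 0.05, adjusted p = 0.442) in controls and 0.15 (SE 0.06, adjusted p = 0.394) in *ChAT-BKO* with edgeR. Averaged over both genotypes, a comparison added after the data were seen, *Syt4* was called at 0.14 (interval 0.06 to 0.21, adjusted p = 0.0324 from edgeR). It was the only one of the 43 genes that this comparison called, and 2.62% of all genes were called.

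*Unc13b* was at 4.25, 7.56 and 15.4 CPM at ZT8 and at 9.17, 11.9 and 13.8 CPM at ZT20 in controls, and at 5.38, 8.56 and 9.70 against 8.05, 10.2 and 14.3 CPM in *ChAT-BKO*. The ZT8 controls spread wider than the ZT20 controls and enclose them. The log2 fold change was 0.51 (SE 0.22, adjusted p = 0.559) in controls and 0.35 (SE 0.15, adjusted p = 0.463) in *ChAT-BKO* with edgeR. In controls it ran from 0.34 to 0.73 with single libraries left out.

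*Erc1* had the smallest p in *ChAT-BKO*. It was at 27.9, 29.0 and 34.3 CPM at ZT8 and at 31.2, 34.5 and 36.3 CPM at ZT20, with 3 of 6 ZT20 libraries above every ZT8 library, and the log2 fold change was 0.21 (SE 0.07, adjusted p = 0.240 from edgeR). In controls it was at 25.2, 28.8 and 32.9 CPM against 28.7, 30.7 and 37.7 CPM, a value of 0.14 (SE 0.09). *Stxbp5*, which encodes the fusion inhibitor tomosyn, was at 32.04, 32.9 and 34.1 CPM at ZT8 and at 32.6, 35.9 and 38.9 CPM at ZT20 in controls with a log2 fold change of 0.13 ± 0.06 (SE) and an adjusted p of 0.599 by edgeR.

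The 7 active zone genes were all above 0 at ZT20 in *ChAT-BKO* (median log2 fold change 0.10) and 5 of 7 were in controls (median 0.13). Over all genes, 11045 of 21738 were above 0 in *ChAT-BKO* and 11058 in controls. Other roles were uneven as well. All 6 vesicle membrane proteins were above 0 in *ChAT-BKO* and 3 of 6 in controls. All 4 SNAREs were in controls and 3 of 4 in *ChAT-BKO*. Of the 4 genes of the Rab3 group, 0 were above 0 in *ChAT-BKO* and 2 in controls. Genes of a role come from the same libraries, and no role was tested as a set. The slope of log2 CPM on log2 exon length, which differs between libraries, had group medians of 0.131 and 0.143 in controls and 0.164 and 0.155 in *ChAT-BKO* at ZT8 and ZT20. Within groups it spread more widely, from 0.065 to 0.296 and from 0.075 to 0.198 in controls. In *ChAT-BKO* it ran from 0.095 to 0.227 and from 0.067 to 0.307. With this slope as a covariate, edgeR called *Unc13b* in controls (0.59, adjusted p = 0.0408), and *Syt4* (0.16, adjusted p = 0.0185) and *Erc1* (0.22, adjusted p = 0.0358) in *ChAT-BKO*, beside 1.64% of all genes in controls and 2.23% in *ChAT-BKO*. Calls rose over all genes with this covariate, from 25 to 357 in controls and from 62 to 484 in *ChAT-BKO*.

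**Figure D5:**
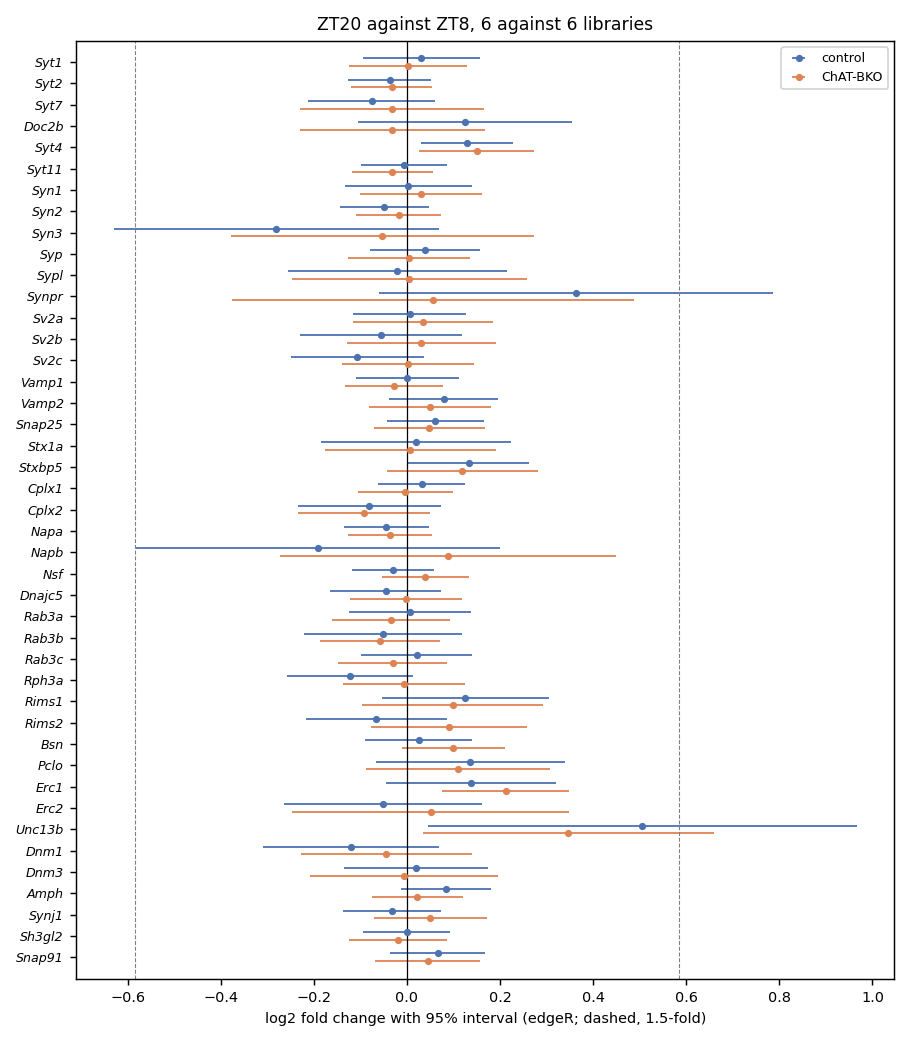
Points are log2 fold changes of ZT20 against ZT8 (x axis) with 95% intervals from edgeR for the 43 genes (y axis) in controls (blue) and *ChAT-BKO* (orange), 6 against 6 libraries, and dashed lines mark 1.5-fold. The intervals of *Syt4* and *Unc13b* lie above 0 in both genotypes, and *Unc13b* has the largest value in each.

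The genotype effect was then compared between times over all 24 IPs. Of the 43 genes, 0 were called and 0 had an unadjusted p under 0.05, beside 0 calls and 3.9% of all genes with edgeR, and 39 intervals lay within 1.5-fold, beside 45.8% of all genes. The smallest p belonged to *Rims2* (difference of log2 fold changes 0.16), *Rph3a* (0.12) and *Nsf* (0.07), each with an adjusted p of 1 from edgeR. With single libraries left out these values ran from 0.10 (without *ChAT-BKO* replicate 4 at ZT8) to 0.22 for *Rims2*, from 0.06 (without control replicate 5 at ZT8) to 0.16 for *Rph3a* and from 0.05 to 0.09 for *Nsf*. For *Rab3b* and *Syn2* the differences were -0.00 (interval -0.22 to 0.22) and 0.03 (-0.08 to 0.14).

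Of 75 other genes of vesicle priming, fusion and recycling, 74 were tested. Between genotypes 1 was called at ZT8 (1.35%), beside 0.184% of all genes, and 0 at ZT20, beside 0.23%. *Stxbp6*, which encodes amisyn, a soluble SNARE-binding protein, was at 24.0, 27.8 and 31.8 CPM in controls and at 33.5, 37.3 and 38.9 CPM in *ChAT-BKO* at ZT8. All 6 *ChAT-BKO* libraries were above every control, and with edgeR the change on the log2 scale was 0.37 ± 0.07 (SE) with an adjusted p of 0.0342. ZT20 values were 26.5, 28.5 and 33.1 CPM against 31.6, 35.8 and 41.0 CPM, where 5 of 6 *ChAT-BKO* libraries were above every control and the log2 fold change was 0.35 (SE 0.08, adjusted p = 0.0665 from edgeR). Leaving out single libraries kept the log2 fold change at ZT8 between 0.33 and 0.41 but kept the call in 3 of 12 fits, those without *ChAT-BKO* replicate 4, control replicate 5 or control replicate 6, and the adjusted p from edgeR ran from 0.0215 to 0.112. At ZT20, 2 of 12 such fits called it, with log2 fold changes between 0.31 and 0.40. The other 9 alternatives called it in 9 of 9 cases at ZT8 and in 5 of 9 at ZT20. Of these 9, 1 is the average over both times, which is the same fit in both counts and tests neither time alone.

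The average over both times, added after the data were seen, called *Stxbp6* (0.36, adjusted p = 5.75e-05 from edgeR), and also *Cadps2*, a CAPS factor of dense core vesicle release (-0.31, adjusted p = 0.0170), and the atypical synaptotagmins *Syt13* (0.24, adjusted p = 0.0280) and *Syt17* (0.34, adjusted p = 0.0488). In the separate comparisons these last 3 had adjusted p between 0.428 and 0.697 from edgeR. Of all genes, the average over both times called 0.653%. An unadjusted p under 0.05 was found for 5 of the 74 genes at ZT8 and 9 at ZT20, and for 8 in controls and 2 in *ChAT-BKO* between times, which is 6.76, 12.2, 10.8 and 2.7% of the 74, beside 4.83, 6.28, 8.25 and 9.42% of all genes. Besides those named, the smallest p at ZT20 included *Synj2*, another synaptojanin (log2 fold change 0.24, adjusted p = 0.399 from edgeR).

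Time of day gave no call among the 74 genes, beside 0.115% of all genes in controls and 0.285% in *ChAT-BKO*. The smallest p in controls belonged to *Syt12* (log2 fold change -0.21), the endosomal syntaxin *Stx6* (-0.14) and the clathrin adaptor subunit *Ap2a1* (-0.10), with adjusted p of 0.483 to 0.517 from edgeR. In *ChAT-BKO* it belonged to *Rab3d* (0.24), *Stx6* (-0.14) and *Snap29* (0.21), with adjusted p of 0.269 to 0.534 from edgeR. The difference of genotype effects between times gave 0 of 74 genes with an unadjusted p under 0.05, beside 3.9% of all genes with edgeR. *Dnm2*, *Syt5* and *Vamp4* came first (0.24, -0.24 and -0.13). Against the input, 6 of the 74 (8.11%) had a mean log2 ratio over 1, beside 7.64% of all genes. A ratio under -1 was found for 23 (31.1%), beside 33.8% of all genes. The median was -0.36, against -0.45 over all genes.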

How the data were processed

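Whole spinal cord homogenate of 1 mouse was used per HA IP, and stranded mRNA libraries were prepared and sequenced by the authors, with all samples of the experiment processed on the same day. The deposited values are expected counts per gene, which the authors obtained by alignment to mm10 with STAR 2.7.5 and estimation with RSEM, and no normalization or filter had been applied. Fractions were left in 6.11% of the values, which were rounded. Groups and replicate numbers came from the sample labels, and 25 of 25 columns were matched to a sample. Whether counting used strand is not given in the sources used here. Of the 43 genes, 14 share exon sequence with another annotated gene, mostly on the opposite strand, and 7 had fractional counts in some column.

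Genes whose sum over the 24 IPs reached 10 counts were tested in R 4.3.3 with edgeR 4.0.16 (TMM, glmQLFit, glmQLFTest, two-sided), each comparison of 2 groups on its own 12 libraries and the difference of effects on all 24. SEs and 95% intervals were derived from the F statistic. The fits were tested on simulated data. DESeq2 1.42.0 and limma 3.58.1 (voom) served as alternatives. Exon lengths came from the GENCODE annotation of GRCm38 and were found for 87.0% of the genes tested, and promoters came from RefSeq. The input entered no test. The smallest chi-square per degree of freedom between 2 libraries of 1 group was 1.86 over 60 pairs, so none was taken for a copy of another. Precision depended on the spread between libraries as well as on total counts per library, from 4.04 to 31.7 M. *Syp* had at least 10259 counts in every IP and a coefficient of variation of 7.59% over the 24 IPs. The intervals cover the spread between mice.

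The genes described in full were those with an unadjusted p under 0.05 in any comparison, the 3 with the smallest p in each comparison, 9 paralog sets, the 5 highest and 5 lowest ratios to input, the 5 highest per length, and from the other release genes those called and those with the smallest p. The 43 genes, these rules and all gene lists were chosen with earlier results of these data known. Averages over both times or both genotypes, and lengths of the longest transcript, were added after the data were seen. Protein sequences were not used here.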

Additional observations from a re-analysis of the deposited data

Results flagged for a closer look

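In 10 of 172 sets of 6 libraries (43 genes in 4 groups), 1 library lay far from the other 5 by Dixon's criterion, and chance gives about 8.6. In controls at ZT8, replicate 5 was highest for *Syt1* (119.9 CPM, others 94.6 to 102.7 CPM), *Syn3* (22.8 CPM, others 9.43 to 14.4 CPM) and *Sv2c* (878.6 CPM, others 640.2 to 728.8 CPM), and replicate 2 was highest for *Snap25* (2899 CPM, others 2525 to 2660.0 CPM). In *ChAT-BKO* at ZT8, replicate 2 was highest for *Sypl* (10.4 CPM, others 7.10 to 8.20 CPM) and *Pclo* (41.5 CPM, others 29.8 to 34.2 CPM) and lowest for *Rab3b* (198.0 CPM, others 236.7 to 252.3 CPM), and replicate 5 was highest for *Erc1* (34.3 CPM, others 27.9 to 30.1 CPM). In *ChAT-BKO* at ZT20, replicate 5 was highest for *Syt2* (2157 CPM, others 1996 to 2049 CPM) and *Cplx1* (2247 CPM, others 1958 to 2036 CPM). Without *ChAT-BKO* replicate 2, or any other single library, none of the 43 genes was called in any comparison.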

How the results depend on the processing

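The count of 0 called genes among the 43 held in all 5 comparisons with DESeq2, limma voom, edgeR under size factors of DESeq2, filterByExpr or no filter, and all 24 libraries in the fit, and leaving out single libraries gave 0 to 0. It changed for time of day: the length slope as a covariate called 1 of the 43 genes in controls and 2 in *ChAT-BKO*, beside 357 and 484 of all genes, and the average over both genotypes called 1, beside 570 of all genes. The cause was not tested. Scaling the input together with the IPs by TMM gave 10 genes with a log2 ratio over 1 in place of 6, and moved the median from -0.10 to 0.36 for the 43 genes and from -0.45 to -0.07 for all genes, a shift by construction. That scaling also turned 6 of the 43 mean ratios to above 0, while the log2 fold changes of the 3 members with the smallest p in each comparison kept their sign under every alternative run, and values near 0, such as those of *Napa*, did not all do so. By correlation, replicate numbers were not found to pair the libraries. Correlations of same-numbered libraries ran from -0.19 to 0.38, and no more than 2 of 6 numbers agreed best with their own. With the replicate number as a block, 0 of the 43 genes were called in each comparison. Over all genes the block changed the calls, given as higher and lower. They went from 21 and 4 to 62 and 24 for time in controls, and from 50 and 12 to 38 and 9 for time in *ChAT-BKO*. For genotype they went from 28 and 12 to 47 and 22 at ZT8, and from 41 and 9 to 51 and 10 at ZT20. With the longest transcript as length, *Rims2* took 52.9% of its pair. Precision was lowest for *Synpr*, *Syn3*, *Napb* and *Unc13b*, whose coefficients of variation were 26.6, 25.6, 28.4 and 29.8%.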
